A study of Rattus norvegicus with 12 samples.

Results

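The striated muscle sarcomere genes are a set of 54 listed genes for the contractile units of skeletal and heart muscle and for the proteins that anchor and service them, followed here in vascular smooth muscle cells exposed to angiotensin II (Ang II). The members were chosen by gene symbol from that list, and 44 of the 54 had a probe set with exactly 1 symbol, among 14506 genes measured in all. Where a gene has several probe sets the rule takes the brightest by its mean on all 12 arrays, but 0 of the 44 members had more than 1 to pick from. The list itself was drawn up with earlier results of these data known, so that the members' changes and their counts are a description of these genes and support no statement about sarcomere genes at large. The 10 listed genes Myh8, Myl4, Mylpf, Neb, Nebl, Myom2, Tcap, Myoz3, Xirp1 and Casq1 were not analysed here.

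Differentiated aortic smooth muscle cells of Sprague-Dawley rats were grown in M199 medium with 10% fetal bovine serum, held without serum for 48 h and given 100 nM Ang II, the peptide hormone that constricts vessels. The 4 groups of 3 arrays (Affymetrix Rat Gene 1.0 ST) are untreated cells, called control below, and cells after 6, 12 and 24 h of Ang II. These hours are those of the sample titles, whereas the labels' treatment protocol gives 1, 3 or 24 h. Replicates are called biological, but separate cultures or animals are not stated, so the p-values cover only array-to-array spread, which may be technical. All groups share the serum withdrawal, and no untreated arrays of the later hours were used here, so Ang II and added time in culture cannot be told apart. All 3 comparisons with control also share the same 3 control arrays. Correlations across genes were 0.9975 to 0.9984 between arrays of a group and 0.9868 to 0.9941 between groups, and the deposited log2 values had array medians of 7.22 to 7.32.

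In striated muscle, myosin filaments pull on actin filaments inside the sarcomere, troponin on the actin filament makes the pull depend on calcium, and titin, the M-band and the Z-disc hold the filaments in register. Smooth muscle has no sarcomeres: it uses its own actin and myosin isoforms, starts contraction by phosphorylating a myosin light chain, and anchors its filaments in dense bodies. Several sarcomere genes and smooth muscle contractile genes share CArG boxes, the DNA sites of serum response factor (SRF), in their promoters.

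The array gives no detection calls, so a dim mark was set from receptors of nasal neurons. It is the 95th percentile of the mean log2 level of 1236 olfactory and vomeronasal receptor genes, 6.54, and 70.7% of all genes lay above it. By their mean over all 12 arrays, 32 of the 44 members lay above this mark. The other 12 (Myh4, Myl1, Myl2, Tnnt1, Ttn, Mybpc1, Myot, Myoz2, Csrp3, Xirp2, Trim63 and Smyd1) lay at or below it, in the range of these receptor genes. As for the smooth muscle label, all 16 measured smooth muscle contractile genes lay above the mark, with a mean log2 level of 12.52 to 12.55 in the control arrays.

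At 6 h 9 of the 44 members passed the test, at 12 h 13 and at 24 h 26. Against control, 7 of the 44 members were higher and 2 lower at 6 h, where 35.8% of all 14506 genes passed (limma, adjusted p under 0.05). At 12 h the counts were 10 higher and 3 lower, against 26.6% of all genes. At 24 h they were 24 higher and 2 lower, which is 59.1% of the members against 30% of all genes. The median log2 change of the members was 0.03, 0.08 and 0.24 at 6, 12 and 24 h, and that of all genes was 0.01, 0.005 and 0.05. The counts by role given below are to be read beside the 35.8%, 26.6% and 30% of all genes at 6, 12 and 24 h. In bulk RNA, more cells that express a gene and more RNA per cell cannot be told apart.

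The direction at 24 h also moved with the level of the signal. Among all 4257 genes at or below the dim mark, 349 were higher and 58 lower at 24 h, with a median log2 change of 0.10. Among the 10249 genes above it, 1873 were higher and 2078 lower, with a median of 0.01. The 32 members above the mark had 19 higher and 2 lower and a median of 0.26, and the 12 dim members had 5 higher and 0 lower and a median of 0.18. The mean set against the mark includes the 24 h arrays, so this split is not independent of the change at 24 h. Myl3 and Tnnc2, counted among the 19, had control means of 6.43 and 6.48, below the mark, and 24 h means of 7.04 and 6.87. Each lay above the mark on 6 arrays. The part of the general shift of dim genes in the dim members' values was not tested.

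**Figure D1:**
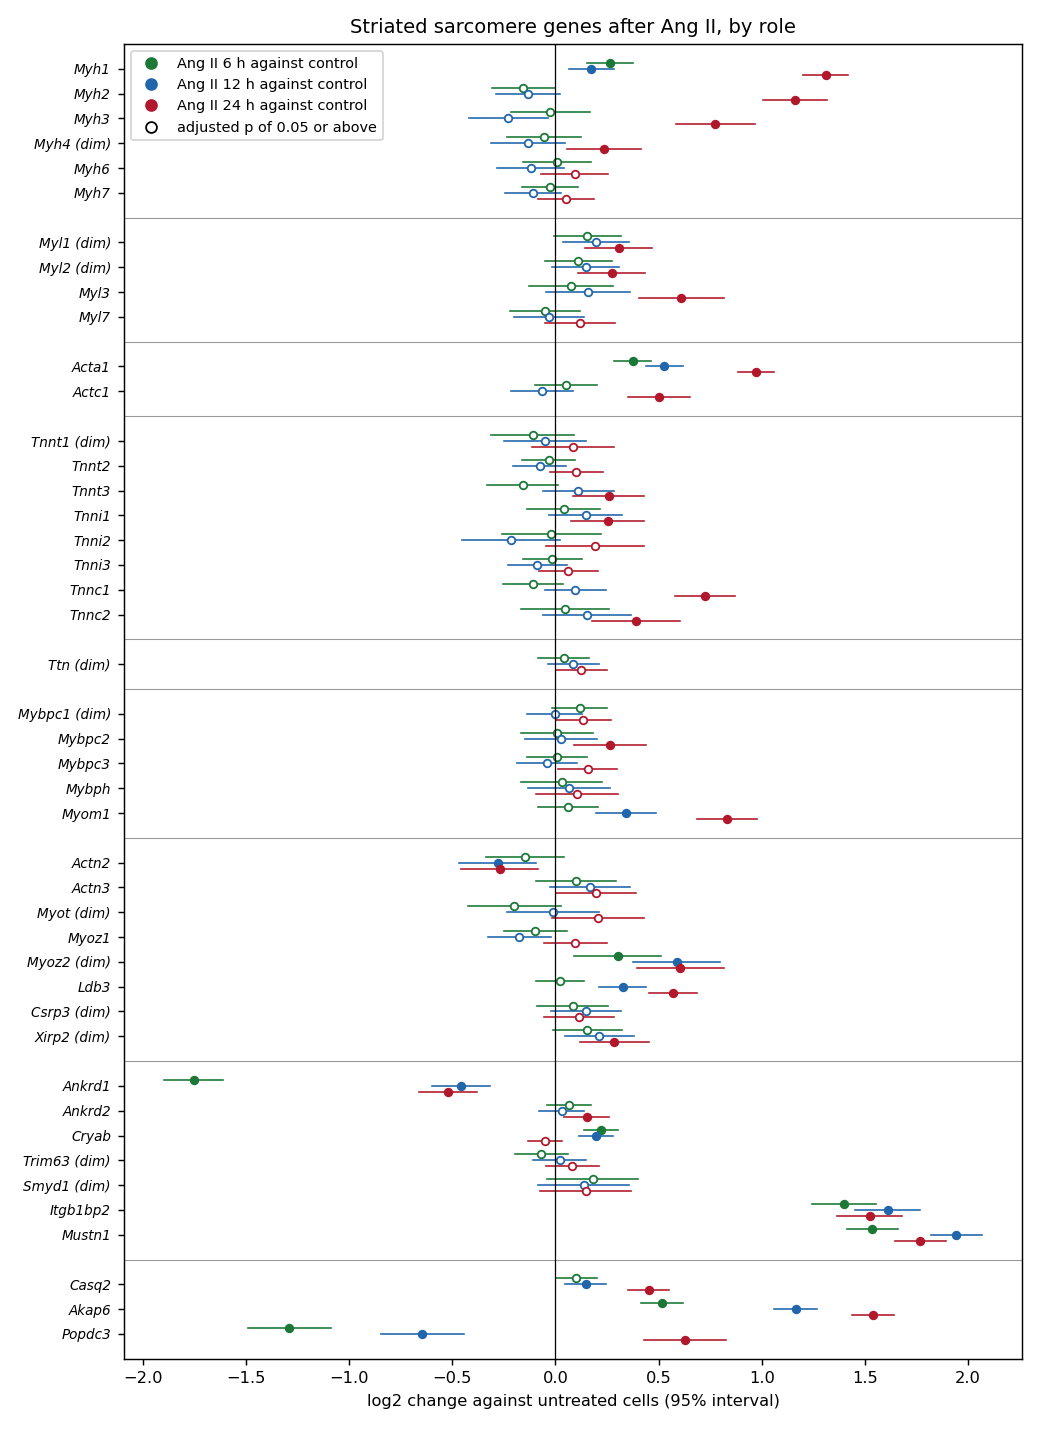
Log2 change of each of the 44 members against the 3 control arrays after 6, 12 and 24 h of Ang II, with 95% intervals, grouped by role; open circles did not pass and "(dim)" marks genes at or below the dim mark of 6.54. Mustn1, Itgb1bp2 and Akap6 lie to the right at all times, Ankrd1 to the left at all times, and Myh1 and Myh2 reach 1.31 and 1.16 at 24 h.

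Promoter windows of 300 bases (250 before and 50 after the start of the gene) from RefSeq, rat assembly GRCr8, were matched to 36 of the 44 members; Ankrd1, Cryab, Csrp3, Mybph, Myl2, Myot, Tnnc1 and Tnnt3 were not matched. A CArG box stood in the windows of 5 of the 36 members (13.9%), which are Acta1, Actc1, Ldb3, Myh4 and Myl3, and in 1.64% of all 33469 windows. All 5 were higher at 24 h, although Myh4 barely passed, as were 21 of the 36 matched members in all. The stretches around the box are printed because these members share it and because it was not used to choose them. Capitals mark the box, and each sequence runs 5′ to 3′ along the strand of the gene. The stretch of Acta1 is chr19:68784195-68784314 on the minus strand, that of Actc1 chr3:121271806-121271835 on the minus strand, that of Ldb3 chr16:9924680-9924799 on the minus strand, that of Myh4 chr10:52422020-52422147 on the plus strand and that of Myl3 chr8:119616974-119617093 on the plus strand.
Acta1: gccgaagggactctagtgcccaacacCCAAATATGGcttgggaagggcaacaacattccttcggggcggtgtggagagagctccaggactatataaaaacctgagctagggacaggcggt
Actc1: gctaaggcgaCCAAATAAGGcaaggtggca
Ldb3: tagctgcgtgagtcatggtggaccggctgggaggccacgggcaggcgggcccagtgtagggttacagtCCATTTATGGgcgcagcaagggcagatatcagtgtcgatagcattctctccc
Myh4: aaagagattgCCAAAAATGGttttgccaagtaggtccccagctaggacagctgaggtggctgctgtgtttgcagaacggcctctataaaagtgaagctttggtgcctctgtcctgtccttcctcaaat
Myl3: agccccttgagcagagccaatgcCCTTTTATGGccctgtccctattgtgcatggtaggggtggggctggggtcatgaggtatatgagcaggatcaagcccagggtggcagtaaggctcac
The first base of the box lay 94 bases before the start in Acta1, 97 in Myl3, 118 in Myh4 and 52 in Ldb3, and 2 bases after the start in Actc1. A MEF2 site was found in 25% of the members' windows and in 3.29% of all windows, and CATTCC (the M-CAT site) in 25% and 14.2%. TGANTCA (the AP-1 site) stood in 11.1% and 7.33%, and CANNTG (the E-box) in 83.3% and 72.1%. Of the 11951 measured genes with a window, 1.35% held a CArG box, 2.59% a MEF2 site and 12.4% CATTCC. For TGANTCA and CANNTG these shares were 6.52% and 67.8%. Of the members with each of these motifs, 6 of 9 with a MEF2 site, 5 of 9 with CATTCC, 4 of 4 with TGANTCA and 17 of 30 with CANNTG were higher at 24 h, so that a full count is not particular to the CArG box. Both strands were searched, each motif was counted on its own, and matches may overlap. A match is only a run of letters.

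Of the 6 measured myosin heavy chains, the motor proteins of the thick filament, 1 was higher at 6 h, 1 at 12 h and 4 at 24 h, and 0 were lower at any of these times. The 4 at 24 h were the skeletal Myh1, Myh2, Myh3 and Myh4, and Myh6 and Myh7 of the heart did not pass. Myh1, which encodes a fast skeletal chain, had log2 levels of 9.99, 10.08 and 10.09 in the control arrays, 10.38, 10.25 and 10.32 after 6 h, 10.16, 10.25 and 10.27 after 12 h and 11.35, 11.33 and 11.41 after 24 h. Every 24 h array was about 1 log2 unit above every other array. The change at 24 h was 1.31 ± 0.05 (SE, n = 3 against 3), a 2.48-fold rise (adjusted p = 8.93e-09). The rises at 6 h (0.26) and 12 h (0.17) were small, and the one at 12 h did not pass without control replicate 1 (adjusted p = 0.0945) or 12 h replicate 2 (0.0763) or 3 (0.0794).

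Myh2, another fast skeletal chain, had log2 levels of 8.70, 8.75 and 8.69 in the control arrays, 8.70, 8.37 and 8.61 after 6 h, 8.59, 8.56 and 8.58 after 12 h and 9.86, 9.82 and 9.94 after 24 h. The 24 h arrays lay above all others. It rose by 1.16 ± 0.07 (adjusted p = 2.76e-07), while −0.16 at 6 h and −0.13 at 12 h did not pass. At 6 h it passed without 6 h replicate 1, at −0.22 (adjusted p = 0.0273), and with genes above the median level alone (0.0461). Myh3, the embryonic chain, had log2 levels of 7.77, 7.70 and 7.87 in the control arrays, 7.84, 7.63 and 7.79 after 6 h, 7.51, 7.56 and 7.59 after 12 h and 8.77, 8.41 and 8.49 after 24 h. It rose by 0.78 ± 0.09 at 24 h (adjusted p = 3.58e-05), again with no overlap. At 12 h it was at −0.23 and did not pass, but it passed without 24 h replicate 1 (adjusted p = 0.0211), with the compared groups alone (0.0222), with genes above the dim mark alone (0.0436), with a trended and robust variance (0.0353) and with array weights (0.0359).

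The cardiac chains did not pass at any time against control: at 24 h Myh6, the alpha chain, was at 0.09 and Myh7, the beta chain, at 0.05 (95% intervals −0.07 to 0.26 and −0.09 to 0.19). Myh4, the remaining fast chain, is dim and passed narrowly at 24 h (0.24, adjusted p = 0.0479). That call was lost under 15 of 20 alternatives (the minimum change not counted), 9 of which leave out 1 array: control replicate 2 or 3, any 6 h array, 12 h replicate 1 or 3, or 24 h replicate 2 or 3 (adjusted p up to 0.179). In the RefSeq gene order Myh3, Myh2, Myh1 and Myh4 are neighbours with 0 coding genes between them, as are Myh6 and Myh7. These chains are alike in sequence, and how far a probe set of one reads the RNA of another was not tested. Myh11, the smooth muscle heavy chain, was at −0.24, −0.17 and 0.44 at 6, 12 and 24 h, all of which passed.

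Among the light chains, which sit on the neck of the motor, 3 of 4 were higher at 24 h and 0 at 6 or 12 h. Myl3, the essential chain of slow and ventricular muscle, had log2 levels of 6.43, 6.48 and 6.38 in the control arrays, 6.45, 6.50 and 6.58 after 6 h, 6.66, 6.34 and 6.77 after 12 h and 6.94, 7.07 and 7.12 after 24 h. The 24 h arrays were all above the rest. The rise was 0.61 ± 0.09 (adjusted p = 0.00038). At 12 h it was at 0.16 and did not pass, but it passed without 12 h replicate 2 (0.28, adjusted p = 0.012). The dim Myl1 and Myl2 were at 0.31 and 0.27, and the call of Myl2 was lost without control replicate 2 or 24 h replicate 3 (adjusted p up to 0.069). Myl7, the atrial regulatory chain, was at 0.12 and passed only without 24 h replicate 3.

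Both sarcomeric actins, the thin filament proteins of skeletal (Acta1) and heart muscle (Actc1), were higher at 24 h. Acta1 had log2 levels of 13.06, 13.14 and 13.14 in the control arrays, 13.51, 13.48 and 13.48 after 6 h, 13.67, 13.65 and 13.61 after 12 h and 14.12, 14.06 and 14.07 after 24 h. The 4 groups did not overlap, and each later time was higher than the one before. The changes were 0.37, 0.53 and 0.97 ± 0.04 at 6, 12 and 24 h (adjusted p = 1.59e-05, 1.55e-06 and 1.52e-08). The steps from 6 to 12 h (0.15) and from 12 to 24 h (0.44) passed as well.

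Actc1 had log2 levels of 8.34, 8.13 and 8.29 in the control arrays, 8.31, 8.35 and 8.25 after 6 h, 8.15, 8.20 and 8.20 after 12 h and 8.61, 8.81 and 8.84 after 24 h. Only the 24 h arrays stood apart, and the rise of 0.50 ± 0.07 there passed (adjusted p = 0.000161), while 0.05 at 6 h and −0.07 at 12 h did not. Acta2, the smooth muscle actin, whose protein is nearly identical to that of Acta1, did not pass at any time (−0.03, −0.03 and 0.07, adjusted p = 0.646, 0.662 and 0.146). Its log2 level was 14.35 to 14.49 over the 12 arrays, near the top of the table's range of 2.25 to 14.65, and the response of the array there was not tested. Actg2, another smooth muscle actin, was at 0.06, 0.07 and 0.34, and only the last passed. How far the Acta1 probe set reads Acta2 RNA was not tested.

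**Figure D2:**
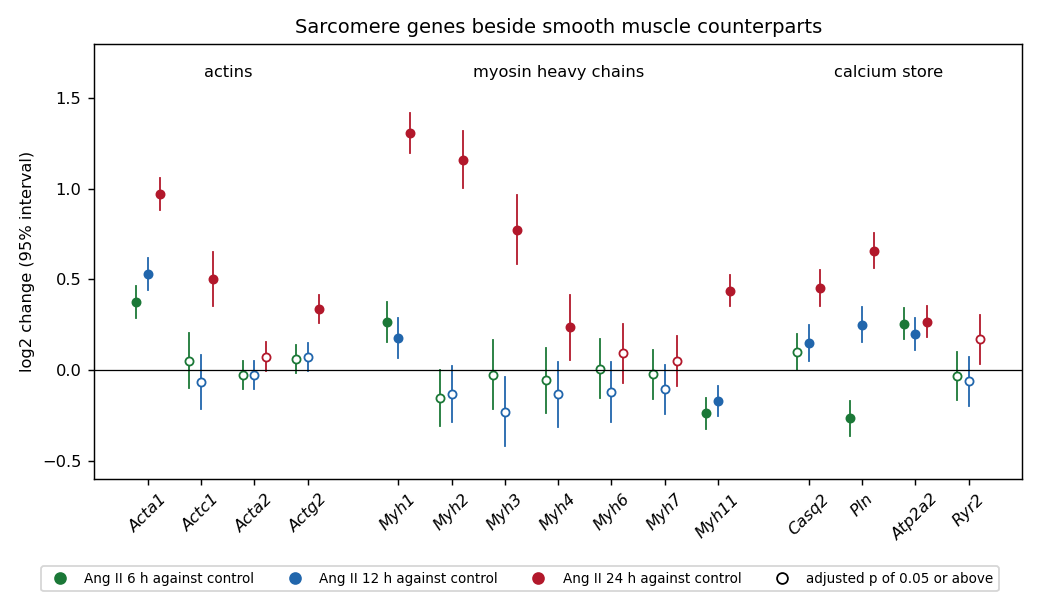
Log2 change against control at 6, 12 and 24 h with 95% intervals; open circles did not pass. Sarcomeric actins and myosin heavy chains stand beside the smooth muscle genes Acta2, Actg2 and Myh11. The calcium store genes Casq2, Pln, Atp2a2 and Ryr2 are a block of their own, without smooth muscle counterparts. Acta1 rises at each time while Acta2 does not pass at any time, and Myh1 and Myh2 rise at 24 h where Myh6 and Myh7 do not pass.

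Of the 8 troponin genes, whose products switch the thin filament by calcium, 4 were higher at 24 h, 0 were lower, and 0 passed at 6 or 12 h against control. Tnnc1, the calcium sensor of slow and heart muscle, had log2 levels of 8.35, 8.21 and 8.28 in the control arrays, 8.11, 8.13 and 8.28 after 6 h, 8.32, 8.41 and 8.41 after 12 h and 8.97, 8.91 and 9.13 after 24 h. All 24 h arrays were above all others. It rose by 0.72 ± 0.07 at 24 h (adjusted p = 7.14e-06), against −0.11 and 0.10 earlier. Tnnc2, the fast muscle sensor, was at 0.39 (adjusted p = 0.0102).

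The other calls were smaller and less firm. Tnnt3, the fast troponin T, was at 0.26, and its call was lost without control replicate 1 or 24 h replicate 1 or 3 (adjusted p up to 0.0968). Tnni1, the slow troponin I, was at 0.25 and was lost without control replicate 3 or 24 h replicate 2 or 3, and under 3 other alternatives (adjusted p up to 0.135). Tnnt2 and Tnni3, the troponins T and I of the heart, were at 0.10 and 0.06, and with Tnnt1 and Tnni2 they did not pass. Tnni3 and Tnnt1 are neighbours in the gene order, with 0 coding genes between them.

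Ttn, the giant spring protein titin, is dim and did not pass at any time. Its log2 level was 5.55 to 5.57 in the control arrays and 5.62 to 5.73 at 24 h, a difference of 0.13 (95% interval 0.00 to 0.25, adjusted p = 0.118).

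Of 5 genes for myosin-binding and M-band proteins, 0 passed at 6 h, 1 at 12 h and 2 at 24 h, all higher. Myom1 encodes myomesin, which cross-links thick filaments at the M-band, and had log2 levels of 7.38, 7.54 and 7.45 in the control arrays, 7.47, 7.53 and 7.56 after 6 h, 7.87, 7.73 and 7.79 after 12 h and 8.42, 8.19 and 8.25 after 24 h. The 12 h arrays lay above control and 6 h, and the 24 h arrays lay above those. The changes were 0.06, 0.34 and 0.83 ± 0.07, of which the last 2 passed (adjusted p = 0.0021 and 2.27e-06). Mybpc2, the fast myosin-binding protein C, was at 0.27 at 24 h, and its call was lost without control replicate 2 or 3 or 24 h replicate 1 or 2, and with the compared groups alone (adjusted p up to 0.104). The slow, cardiac and H forms, Mybpc1, Mybpc3 and Mybph, did not pass against control.

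At the Z-disc, where thin filaments are anchored, 3 of 8 genes were higher and 1 lower at 24 h, with 1 higher at 6 h and 2 higher and 1 lower at 12 h. Ldb3, a PDZ-LIM protein of the Z-disc, had log2 levels of 8.21, 8.18 and 8.20 in the control arrays, 8.30, 8.16 and 8.19 after 6 h, 8.51, 8.56 and 8.49 after 12 h and 8.81, 8.67 and 8.82 after 24 h. Control and 6 h arrays overlapped, the 12 h arrays lay above them and the 24 h arrays above those. The changes were 0.02, 0.33 and 0.57 ± 0.05, and those at 12 and 24 h passed (adjusted p = 0.000616 and 7.29e-06).

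Myoz2, a calcineurin-binding Z-disc protein, is dim and had log2 levels of 5.58, 5.95 and 5.88 in the control arrays, 6.17, 6.11 and 6.04 after 6 h, 6.48, 6.43 and 6.28 after 12 h and 6.52, 6.45 and 6.27 after 24 h. All Ang II arrays lay above all control arrays. The changes were 0.30, 0.59 and 0.61 ± 0.10 (adjusted p = 0.0279, 0.000649 and 0.000505). The call at 6 h was lost without control replicate 1 (0.19, adjusted p = 0.111) or 6 h replicate 1 (0.0912) or 2 (0.0645). Actn2, the cross-linking alpha-actinin of the Z-disc, was lower at 12 h (−0.28) and 24 h (−0.27). Its 12 h call was lost without control replicate 1 or 2 or 12 h replicate 1, and its 24 h call without control replicate 1 or 2 or 24 h replicate 2 or 3, besides 4 and 2 other alternatives (adjusted p up to 0.119 and 0.125). The dim Xirp2, an actin-binding protein of cell junctions, was at 0.29 at 24 h and was lost without control replicate 1 or 2 or 24 h replicate 1, and with the compared groups alone (adjusted p up to 0.0648). Actn3, Myot, Myoz1 and Csrp3 did not pass against control.

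The largest changes of all members were in the genes for stress and accessory proteins, and they were present at 6 h. Of these 7 genes 3 were higher and 1 lower at each of the 3 times. Mustn1, a small nuclear protein of muscle and bone, had log2 levels of 9.53, 9.59 and 9.44 in the control arrays, 11.13, 11.00 and 11.03 after 6 h, 11.37, 11.50 and 11.51 after 12 h and 11.24, 11.31 and 11.31 after 24 h. No Ang II array overlapped a control array. The changes were 1.54, 1.94 and 1.77 ± 0.06, or 2.9-fold, 3.85-fold and 3.41-fold (adjusted p = 2.06e-09, 8.63e-10 and 2.5e-09).

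Itgb1bp2, which encodes melusin, a partner of integrin beta chains in muscle, had log2 levels of 7.54, 7.41 and 7.37 in the control arrays, 8.92, 8.74 and 8.86 after 6 h, 9.01, 8.99 and 9.16 after 12 h and 9.05, 8.97 and 8.87 after 24 h. Control arrays were far below all others. The changes were 1.40, 1.61 and 1.52 ± 0.07 (adjusted p = 2.78e-08, 1.94e-08 and 3.81e-08). Ankrd1, a stress-responsive ankyrin repeat protein that binds titin, went the other way, with log2 levels of 10.39, 10.45 and 10.47 in the control arrays, 8.81, 8.61 and 8.62 after 6 h, 9.88, 10.05 and 10.00 after 12 h and 9.99, 9.86 and 9.89 after 24 h. All Ang II arrays were below control, and the 6 h arrays were lowest. It fell by 1.75 ± 0.06 at 6 h, a 3.38-fold drop (adjusted p = 2.18e-09), and remained lower at 12 h (−0.46) and 24 h (−0.52). From 6 to 12 h it rose by 1.30 (adjusted p = 1.01e-07).

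Cryab, the small heat shock protein of muscle, was higher at 6 h (0.22) and 12 h (0.20) and not at 24 h (−0.05), and the step from 12 to 24 h was −0.25 (adjusted p = 0.000479). Ankrd2, a relative of Ankrd1, was at 0.15 at 24 h, a call lost under 11 of 21 alternatives, among them leaving out any control array or 24 h replicate 1 or 2 (adjusted p up to 0.141). Trim63, a ubiquitin ligase of muscle wasting, and Smyd1, a methyltransferase needed for myofibril assembly, did not pass.

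All 3 genes of the calcium store and membranes were higher at 24 h, each by a different course. Akap6 encodes an anchor for protein kinase A at the nuclear envelope, and had log2 levels of 9.09, 9.05 and 9.13 in the control arrays, 9.52, 9.66 and 9.63 after 6 h, 10.24, 10.27 and 10.24 after 12 h and 10.67, 10.60 and 10.61 after 24 h. The 4 groups did not overlap and stood in the order of time. The changes were 0.52, 1.16 and 1.54 ± 0.05 (adjusted p = 3.38e-06, 9.38e-09 and 2.14e-09). Casq2, the calcium-binding protein calsequestrin of the store, was at 0.10, 0.15 and 0.45 ± 0.05 and passed at 24 h (adjusted p = 1.48e-05). Its call at 12 h was lost without any 1 control array or 12 h replicate 2 or 3, and under 3 other alternatives (adjusted p up to 0.121).

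Popdc3, a membrane protein of the cAMP-binding Popeye family, had log2 levels of 8.47, 8.50 and 8.53 in the control arrays, 7.29, 7.02 and 7.32 after 6 h, 7.80, 7.82 and 7.94 after 12 h and 9.29, 8.96 and 9.14 after 24 h. The 6 h arrays were lowest and the 24 h arrays highest, with no overlap between any of the groups. It fell by 1.29 ± 0.09 at 6 h and by 0.65 at 12 h (adjusted p = 4.13e-07 and 0.000221). At 24 h it was 0.63 above control (adjusted p = 0.00025).

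**Figure D3:**
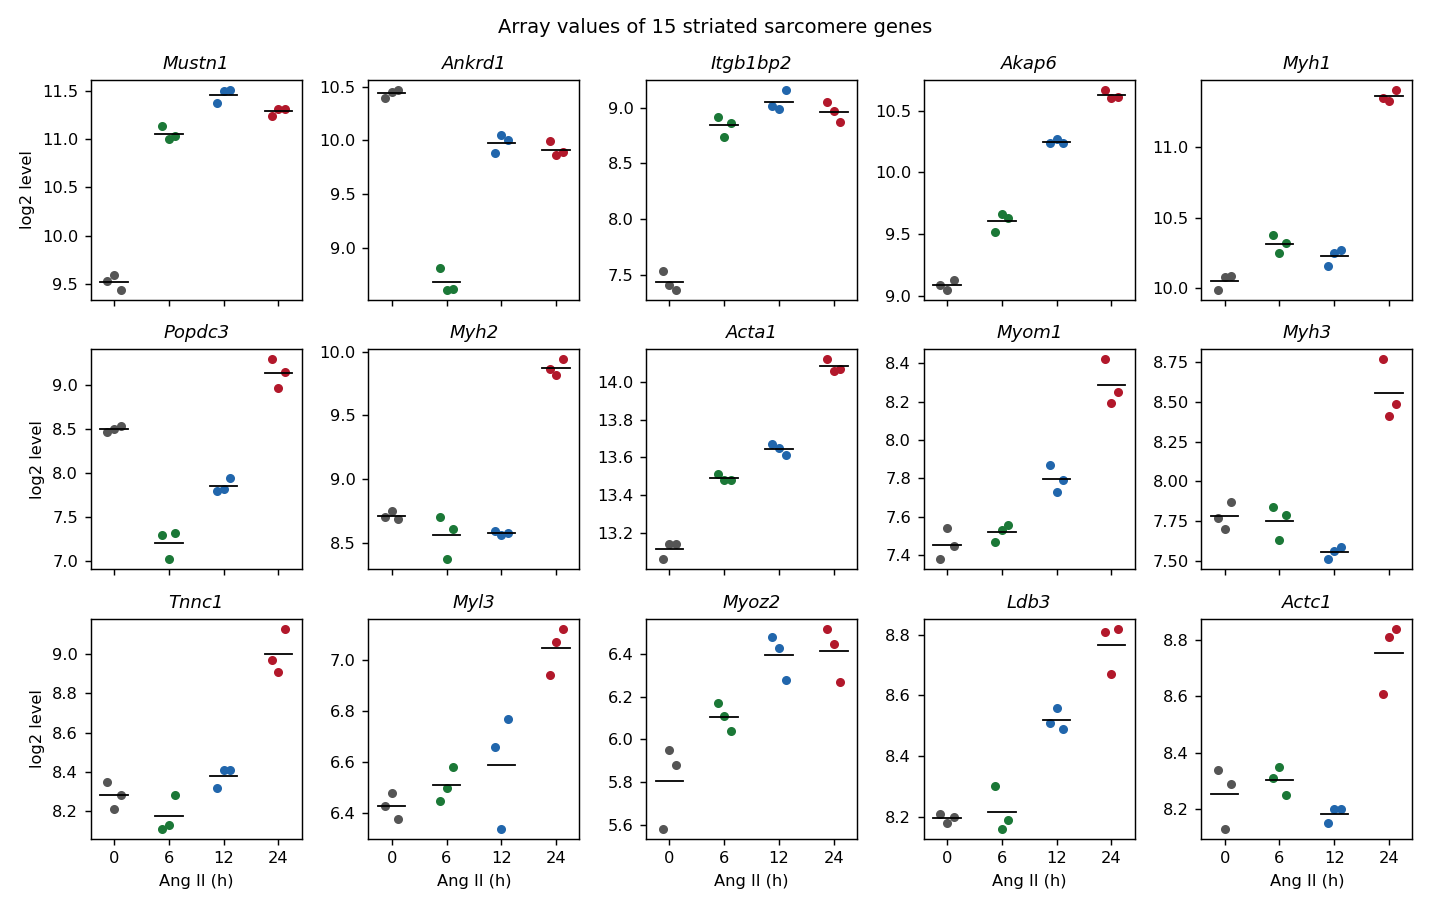
Log2 level on each of the 12 arrays for members that passed with a change of at least 0.5, by group (control, 6, 12 and 24 h of Ang II); points are arrays and bars group means, and each panel has its own axis. Popdc3 runs from 8.47 to 8.53 in control down to 7.02 to 7.32 at 6 h and up to 8.96 to 9.29 at 24 h.

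Members were also compared between the Ang II times, in the same fit, whose estimate of the spread includes the control arrays. From 6 to 12 h 11 members were higher and 0 lower (27% of all genes passed), from 12 to 24 h 18 were higher and 2 lower (27.5%), and from 6 to 24 h 21 were higher and 1 lower (39.2%). From 12 to 24 h Myh2 was 1.30, Popdc3 1.27, Myh1 1.14 and Myh3 1.00 higher on the log2 scale. The 2 that were lower were Cryab and Mustn1 (−0.17), and the latter was lost without control replicate 1, 12 h replicate 2 or 3 or any 24 h array, and under 4 other alternatives (adjusted p up to 0.118). Without 12 h replicate 2 the count from 6 to 12 h was 7. The F test over the 4 groups was passed by 28 members, against 51.5% of all genes.

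**Figure D4:**
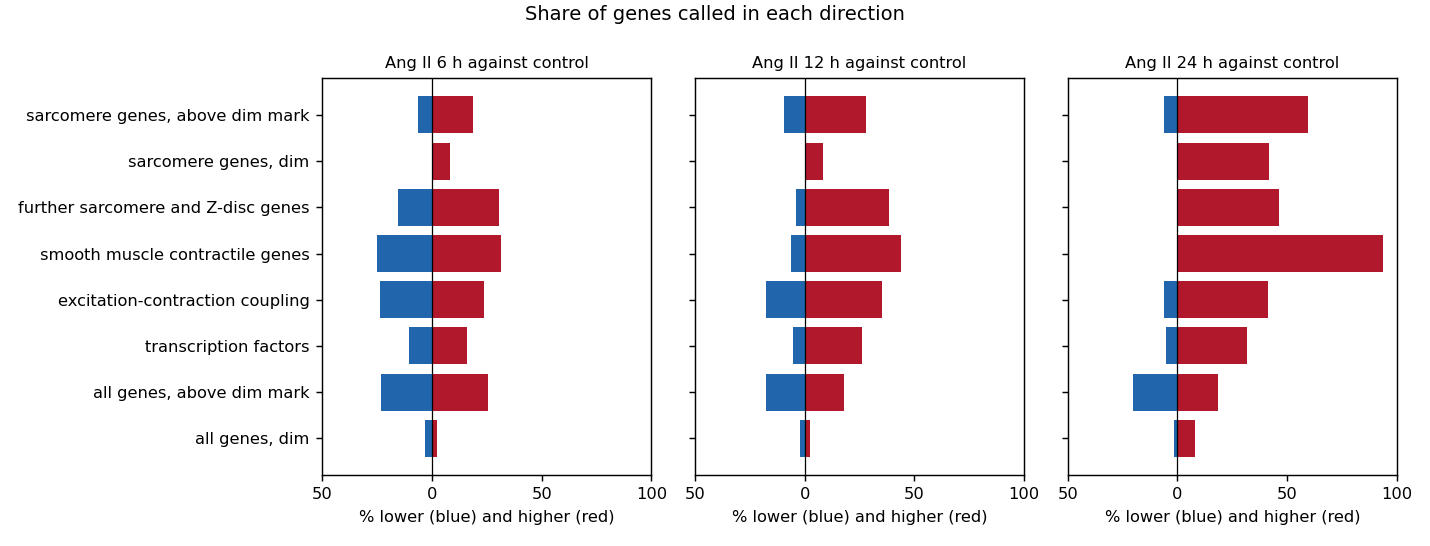
Percent of genes that were higher (red, to the right) and lower (blue, to the left) than control at 6, 12 and 24 h, 1 panel a time, for the members and all genes above and at or below the dim mark and for 4 of the lists. At 24 h 19 of 32 brighter members were higher and 2 lower, against 1873 and 2078 of 10249 brighter genes, and 15 of 16 smooth muscle contractile genes were higher. Brighter genes are those whose mean over all arrays, the 24 h arrays included, lay above the mark.

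Other genes of striated muscle were taken from a list put together with earlier results known. Of its 26 measured sarcomere and Z-disc genes 8 were higher and 4 lower at 6 h, 10 and 1 at 12 h, and 12 and 0 at 24 h, with a median log2 change of 0.19 at 24 h. In percent, 46.2, 42.3 and 46.2 of the list passed, against 35.8, 26.6 and 30 of all genes. Of all genes above the dim mark, 48.4%, 35.6% and 38.6% passed. Klhl41, a Kelch protein of myofibril assembly, rose at 6 h (2.11) and 12 h (1.48) and was at −0.02 ± 0.06 at 24 h. Pdlim3, a Z-disc PDZ-LIM protein, was at 0.03, 0.27 and 1.44 ± 0.06, and Hspb7, a small heat shock protein of heart muscle, at −0.27, 0.16 and 1.10 ± 0.08, and all of these but Pdlim3 at 6 h, Hspb7 at 12 h and Klhl41 at 24 h passed.

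Of 17 genes of excitation-contraction coupling, which link the membrane signal to calcium release, 4 were higher and 4 lower at 6 h, 6 and 3 at 12 h, and 7 and 1 at 24 h. These are 47.1%, 52.9% and 47.1% of the list, against 35.8%, 26.6% and 30% of all genes. Above the dim mark, where 11 of the 17 lay, 48.4%, 35.6% and 38.6% of all genes passed. Cacna1c, the pore of the L-type calcium channel, fell at 6 h (−0.71) and 12 h (−0.84) and was higher at 24 h (0.46). Jph2, which ties the store to the membrane, was at 0.46, 0.79 and 0.56, and Pln, the brake on the calcium pump of the store, at −0.27, 0.25 and 0.66. All of these passed.

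Among the smooth muscle contractile genes themselves, 5 of 16 were higher and 4 lower at 6 h, 7 and 1 at 12 h, and 15 and 0 at 24 h, with a median log2 change of 0.32 at 24 h. In percent, 56.2, 50 and 93.8 of the list passed, against 48.4, 35.6 and 38.6 of all genes above the dim mark. Smtn, Lmod1 and Des, which encode smoothelin, leiomodin and desmin, were at 0.66, 0.59 and 0.56 at 24 h. The members' rise at 24 h stood beside a rise of these genes.

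Of 19 transcription factors and cofactors of striated muscle, 3 were higher and 2 lower at 6 h, 5 and 1 at 12 h, and 6 and 1 at 24 h. These are 26.3%, 31.6% and 36.8% of the list, near the 35.8%, 26.6% and 30% of all genes. Of all genes above the dim mark, 48.4%, 35.6% and 38.6% passed. Gata6 fell at all times (−0.77, −0.67 and −0.74), Tead3 rose (0.13, 0.21 and 0.51), and so did Mef2d (0.30, 0.31 and 0.25). Srf was at −0.09, 0.17 and 0.18 and passed at 12 and 24 h, and its cofactor Myocd was at 0.26, 0.25 and 0.29 and passed at all times. The skeletal muscle determination factors Myod1, Myog and Myf6 did not pass at any time. Their log2 levels on the arrays were 5.95 to 6.69, 6.38 to 6.81 and 5.47 to 5.96, near or below the dim mark of 6.54. Myf5, of the same family, was at 6.49 to 6.96. At such levels the lack of a call says little about these genes.

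Of 10 measured skeletal muscle markers, 6 of them above the dim mark, 1 was higher and 0 lower at 24 h, and it was Ckm, the muscle creatine kinase (0.39). Their mean log2 level was 6.80 to 6.86 in the control arrays and 6.93 to 7.04 at 24 h. At 6 h 1 of the 10 was higher and 1 lower, and at 12 h 0 and 1. These are 20% and 10% of the list, against 35.8% and 26.6% of all genes. Atp2a1, another of these markers, was lower at 6 h (−0.22). Its log2 level was 8.39 to 8.58 in control, 8.10 to 8.26 at 12 h and 8.59 to 8.62 at 24 h. Of 11 cardiomyocyte markers, 5 above the mark, 2 were higher at 24 h, Pln and Sln, an inhibitor of the calcium pump (0.28). The mean of the 11 was 7.09 to 7.15 in control and 7.23 to 7.38 at 24 h. Sln was at 6.38 to 6.48 in control and 6.57 to 6.82 at 24 h, around the dim mark. Pln was at 12.59 to 12.68 in control, close to the mean of the smooth muscle contractile genes. Nppb, the natriuretic peptide gene, was higher at 6 h (1.09) and 12 h (0.47). At 24 h 10% of the skeletal and 18.2% of the cardiomyocyte markers passed, against 30% of all genes.

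Of 11 endothelial markers, 4 above the mark, 2 were higher and 1 lower at 24 h, the last being Tek (−0.91). Tek was dim, at 6.40 to 6.55 in control and 5.50 to 5.59 at 24 h. Esam, above the mark, went up, from 7.64 to 7.82 in control to 8.05 to 8.17 at 24 h. Cldn5, around the mark, was at 6.37 to 6.66 in control and 6.74 to 6.87 at 24 h. The mean of the 11 was 6.47 to 6.48 in control and 6.50 to 6.51 at 24 h. Of 11 leukocyte markers, 4 above the mark, 2 were higher and 1 lower, with Cd74, the invariant chain of antigen presentation, at 1.99 and Cd14 at −1.01, and the mean was 6.36 to 6.45 and 6.54 to 6.60. Of 12 fibroblast markers 2 were higher and 6 lower at 24 h, led by Pdgfra (−1.15), Lum (−0.76) and Dcn (−0.74), and the mean went from 10.78 to 10.79 in control to 10.46 to 10.50. The fall was present earlier, with 1 higher and 5 lower at 6 h, and 1 and 6 at 12 h. These are 50% and 58.3% of the list, against 35.8% and 26.6% of all genes. Pdgfra was at −1.39 at 6 h, and the 1 higher there was S100a4 (0.26). At 24 h 27.3% of the endothelial, 27.3% of the leukocyte and 66.7% of the fibroblast markers passed, against 30% of all genes. The part of endothelial cells, leukocytes and fibroblasts in the members' changes was not tested.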

How the data were processed

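The 12 arrays are 4 groups of 3, grouped by title. The authors deposited log2 values, which the submitters' processing notes tie to RMA and Partek; versions and filters were not given in the sources used here. Of 29214 probe sets 15310 had 1 gene symbol in the platform annotation, 323 had several and 13581 are unnamed here. The probe set with the highest mean was used, giving 14506 genes; symbols were updated through RefSeq (GRCr8), by gene identifier for 14481, by accession for 5, and 20 kept theirs. No read depth exists for arrays, and their number limits the precision (median SE of a log2 difference 0.0667).

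A model of 4 group means was fitted with limma 3.58.1 in R 4.3.3 (8 residual and 3.37 prior degrees of freedom), with two-sided tests and Benjamini-Hochberg adjustment over all 14506 genes, at 0.05. Members and lists were chosen with earlier results of these data known. Array values are given for the 15 members that passed against control with a log2 change of at least 0.5; the largest change of each of the 9 roles, Acta1, Actc1, Acta2 and up to 3 passing genes of each list were also named. Other members are named by their role, and Actg2, Myh11, Srf, Myocd, Myod1, Myog, Myf5 and Myf6 were named after their values were seen. Alternatives tried were a fit on just the compared groups, a replicate block, quantile normalization, median centring, filters on dim genes, other probe set rules, a trended and robust variance, array weights, a minimum change and leaving out each array. Lists overlap in some genes, such as Pln. The steps were tested on simulated data. Python 3.11.15, pandas 2.3.3 and matplotlib 3.10.9 were used.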

Additional observations from a re-analysis of the deposited data

Results flagged for a closer look

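Popdc3 stood out because its change against control had opposite signs at different times: every 6 h and 12 h array lay below every control array and every 24 h array lay above them. The log2 difference between 24 h and 6 h was 1.92 (limma, adjusted p = 1.92e-08), and between 24 h and 12 h it was 1.27 (adjusted p = 1.64e-06).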

How the results depend on the processing

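The number of members that passed kept within 1.5 times its main value under most alternatives, and no named change that passed turned its sign. With a log2 change of at least 0.5 required, 5, 6 and 15 members passed at 6, 12 and 24 h against control, 3 from 6 to 12 h, 6 from 12 to 24 h and 11 from 6 to 24 h. With genes above the median level alone, where 13 members were tested, 12 passed at 24 h against control, 11 from 12 to 24 h, 12 from 6 to 24 h and 13 in the F test; fewer members were tested. Leaving out each array gave 7 to 12 members from 6 to 12 h and 20 to 26 at 24 h against control. Of the 26 members that passed at 24 h, 18 passed under every alternative in which they were tested other than the minimum change, up to 22. Correlations of deviations from group means were −0.103 to 0.299 over 18 same-numbered pairs of arrays (median 0.026). Over 36 differently numbered pairs they were −0.28 to 0.257 (median −0.02). The ranges overlapped, which cannot exclude a pairing by replicate number. With the replicate block 9, 11 and 24 members passed at 6, 12 and 24 h against control, 10, 18 and 22 between the Ang II times, and 26 in the F test. Levels at or below the dim mark and near the top of the range limit what can be read.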

Other observations

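The CArG box of the sarcomere promoters was also counted over all measured genes with a window. Of 11951 such genes 161 held a box, and 48 of these (29.8%) were higher at 24 h, against 15.1% of all 11951. For genes with a MEF2 site the share was 14.2%, with CATTCC 15.5%, with TGANTCA 16.7% and with CANNTG 14.6%. These shares are given without a test, since the members are among these genes. The part of the smooth muscle contractile genes and of the signal level in these shares was not tested.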
